A study of Mus musculus with 8 samples.

Results

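Pax2, Pax8, Prom1, Cd24a, Six2, Sall1, Osr1, Lhx1, Eya1 and Gdnf are 10 genes used to mark the parietal epithelium of the glomerulus or the progenitor cells of the developing nephron, and their transcripts were followed here in cells of renin lineage (CoRL). They were found as the probes whose gene symbol on the array is 1 of these 10 names, which gave 15 probes of 23978 named probes and 10 genes of 16593. CoRL were sorted by fluorescence from the kidney cortex of Ren1cCre×Rs-ZsGreen-R mice. Of these, 4 mice had day 5 FSGS (focal segmental glomerulosclerosis, a disease with loss of podocytes) after 2 doses of a sheep antibody against glomeruli, each of 12 mg per 20 g of body weight and 24 h apart, and were killed 5 days after the second dose. The other 4 mice, matched in age, were uninjured and received no antibody. Mice of both groups carried the same alleles: Cre under the control of the renin gene, and ZsGreen behind a stop cassette that Cre removes. The label is permanent, so that the sort aimed at cells that make renin together with cells that made it earlier. A sample is a mixture of the cells sorted. RNA yields were low, and the RNA of each mouse was amplified before it was hybridized to 1 Illumina MouseRef-8 v2.0 BeadChip array, which yields for every probe a signal intensity, with a detection p-value set by that array's negative controls.

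The parietal epithelium is the flat cell layer that lines Bowman's capsule around the glomerulus. In the embryo, nephrons arise from mesenchymal progenitor cells that are kept by a set of transcription factors, and these cells secrete a ligand that makes the ureteric bud branch. After induction the progenitors condense into the renal vesicle and become epithelial, and some of the same factors remain in parietal and tubular epithelium of the adult kidney.

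The arrays differed in sensitivity. Probes detected at a detection p under 0.01 numbered 11700, 11340, 11153 and 11681 in day 5 FSGS replicates 1 to 4, and 5793, 8365, 10016 and 12052 in uninjured replicates 1 to 4. Uninjured replicate 1 stood apart, since its lowest detected level was 7.34 on the normalized log2 scale, against 5.67 to 5.79 on the day 5 arrays and 5.59 to 6.51 on the other uninjured arrays. Levels in the text are log2 values of background-corrected, quantile normalized signal, and a gene was called changed at a limma adjusted p of at most 0.01 (Benjamini-Hochberg over all genes or all probes). Of 21 measured genes of mural and renin-lineage cells, 4 were detected on all 8 arrays and 7 on none. The 4 were smooth muscle actin (Acta2), Rgs5, Gata2 and Nr2f2. The 7 were Tagln, Cnn1, Pdgfrb, Tbx18, Foxd1, Rgs4 and Ptger4. Acta2 read 8.38, 7.99, 7.96 and 8.79 in day 5 CoRL and 7.75, 7.45, 8.15 and 8.07 in uninjured CoRL. The renin gene was not analysed here. In uninjured CoRL the mean level of these mural and renin-lineage genes was 6.04 to 6.30, and that of the measured proximal tubule genes 9.83 to 10.1. Whether cells that never made renin, or their RNA, were in the samples was not tested. In such bulk samples, fewer cells of a type and less RNA per cell cannot be told apart.

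Most of the 15 probes were detected on no array at a detection p under 0.01. Pax2 (ILMN_2949326) and Cd24a were detected on all 8 arrays, which held for 20.8% of all named probes (at gene level 2 of 10, against 24.7% of genes). The same 2 probes were the ones detected on all arrays of at least 1 group, against 38.6% of named probes. For 10 of the 15 probes no array reached detection, against 44.6% of named probes, and 5 of the 10 genes (Prom1, Six2, Osr1, Eya1 and Gdnf) were detected on no array, against 42.4% of genes. The remaining 3 probes, 1 each of Pax8, Sall1 and Lhx1, were detected on some arrays. The day 5 arrays detected 4, 2, 3 and 3 of the probes, and the uninjured arrays detected 2, 3, 4 and 5. At a detection p under 0.05 in place of 0.01, 4 of the probes were detected on all arrays of at least 1 group, against 2. At 0.05, 10 of the 15 probes and 8 of the 10 genes were detected on at least 1 array, beside 11151 of all 16593 genes. The lack of detection thus depends on the threshold.

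**Figure D1:**
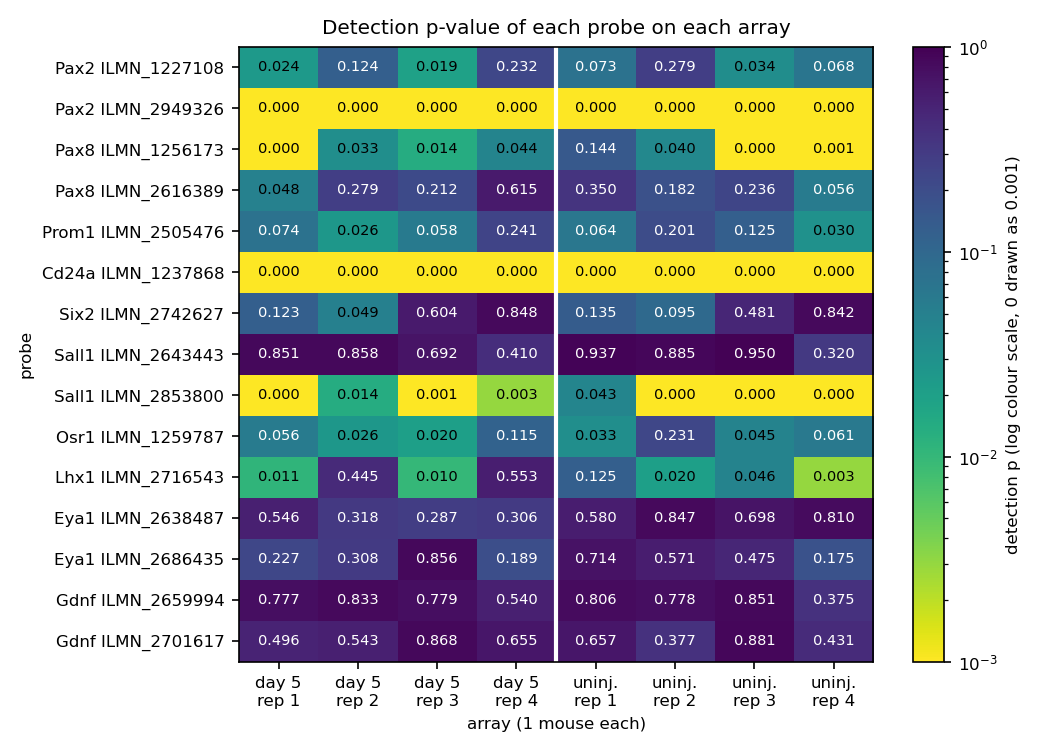
Detection p-value of each of the 15 probes (rows) on each of the 8 arrays (columns, the 4 day 5 FSGS arrays left of the white line and the 4 uninjured arrays right of it), printed in each cell and coloured on a log scale. The rows of Pax2 (ILMN_2949326) and Cd24a are at 0 on every array, whereas the rows of Six2, Eya1 and Gdnf stay above 0.01 on every array.

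The sequences just upstream of Pax2, Pax8, Sall1 and Lhx1 are shown because these are the 4 genes with a probe at an unadjusted p under 0.05. Windows of 250 bases before the outermost annotated start were matched for 6 of the 10 genes (RefSeq, GRCm38), and the sequences run 5′ to 3′ on the strand of the gene. Capitals mark the CCAAT box (CCAAT) and the GC box (GGGCGG), searched on both strands, so that a box on the other strand reads ATTGG or CCGCCC.
Pax2, chr19:44746351-44746600, plus strand: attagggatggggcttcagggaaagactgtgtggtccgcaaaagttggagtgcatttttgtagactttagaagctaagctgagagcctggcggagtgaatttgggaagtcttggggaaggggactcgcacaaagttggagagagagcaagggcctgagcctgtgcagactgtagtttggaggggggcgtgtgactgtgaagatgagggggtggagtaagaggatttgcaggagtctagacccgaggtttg
Pax8, chr2:24475600-24475849, minus strand: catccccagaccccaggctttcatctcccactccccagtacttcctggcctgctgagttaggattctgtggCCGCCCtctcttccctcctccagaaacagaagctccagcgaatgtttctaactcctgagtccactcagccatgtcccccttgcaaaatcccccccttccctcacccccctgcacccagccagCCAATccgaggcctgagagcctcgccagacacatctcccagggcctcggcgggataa
Sall1, chr8:89044163-89044412, minus strand: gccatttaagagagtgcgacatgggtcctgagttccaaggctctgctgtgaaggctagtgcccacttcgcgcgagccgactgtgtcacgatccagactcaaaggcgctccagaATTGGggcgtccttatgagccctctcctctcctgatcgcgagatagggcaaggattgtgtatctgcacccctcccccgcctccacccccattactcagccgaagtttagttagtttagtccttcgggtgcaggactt
Lhx1, chr11:84525535-84525784, minus strand: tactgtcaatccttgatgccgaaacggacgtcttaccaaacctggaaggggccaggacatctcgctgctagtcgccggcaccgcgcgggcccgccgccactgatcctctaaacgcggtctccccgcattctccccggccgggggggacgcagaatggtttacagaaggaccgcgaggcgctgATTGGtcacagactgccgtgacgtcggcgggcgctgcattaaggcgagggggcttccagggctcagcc
A CCAAT box lay in the windows of Pax8, Six2, Sall1 and Lhx1, 4 of the 6, and in 33.8% of the windows of 32851 promoters. GC boxes were in the windows of Pax8 and Six2, against 32.7% of promoters, and the TATA box (TATAAA, 12.4%) was in that of Gdnf alone. Neither an HNF1 half-site (GTTAAT, 6.43% of promoters) nor a WT1/EGR1 site (GCGNGGGCG, 4.7%), searched on both strands, was in any of the 6 windows, and no capitals mark the motifs that were absent. The 250 bases of Lhx1 and Six2 held 26 CpG dinucleotides each, those of Sall1 13, Gdnf 7, Pax8 6 and Pax2 5, where the median promoter held 6. A match of letters is a description of the window only.

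No gene of the 10 was called changed between day 5 and uninjured CoRL, and none of the 15 probes was. Over all genes 2.31% were called (1.91% higher and 0.398% lower in day 5 CoRL), and over all probes 2.48%. At an unadjusted p under 0.05 there were 3 of the 10 genes (Sall1, Lhx1 and Pax8), against 30.5% of all genes, and 4 of the 15 probes, against 29.3% of all probes. All 3 of these genes and all 4 of these probes had the lower mean in day 5 CoRL. Among all genes at that p, 2575 of 5059 had the lower mean, which is 15.5% of all genes tested. Among all probes at that p, 3525 of 7024 had the lower mean, or 14.7% of all probes tested. The methods' Bayesian test and the unequal-variance test also called 0 of the 10 genes. Of the 10 genes 9 had a lower mean in day 5 CoRL, Eya1 being the other, against 55.3% of all genes; with scaling to a common median Eya1 was lower and Cd24a higher, and with scaling to the 75th percentile all 10 were lower. Their median log2 difference was -0.35, beside -0.033 over all genes, and -0.10 without uninjured replicate 1. The day 5 and uninjured values did not overlap for 1 gene, Sall1, which was lower in day 5 CoRL as were 9.61% of all genes, while none of the 10 was higher without overlap, as 10.4% of all genes were. Among the probes, 12 of 15 had a lower mean, against 54.6% of all probes, and 1 had groups that did not overlap, against 19% of all probes (8.97% lower).

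**Figure D2:**
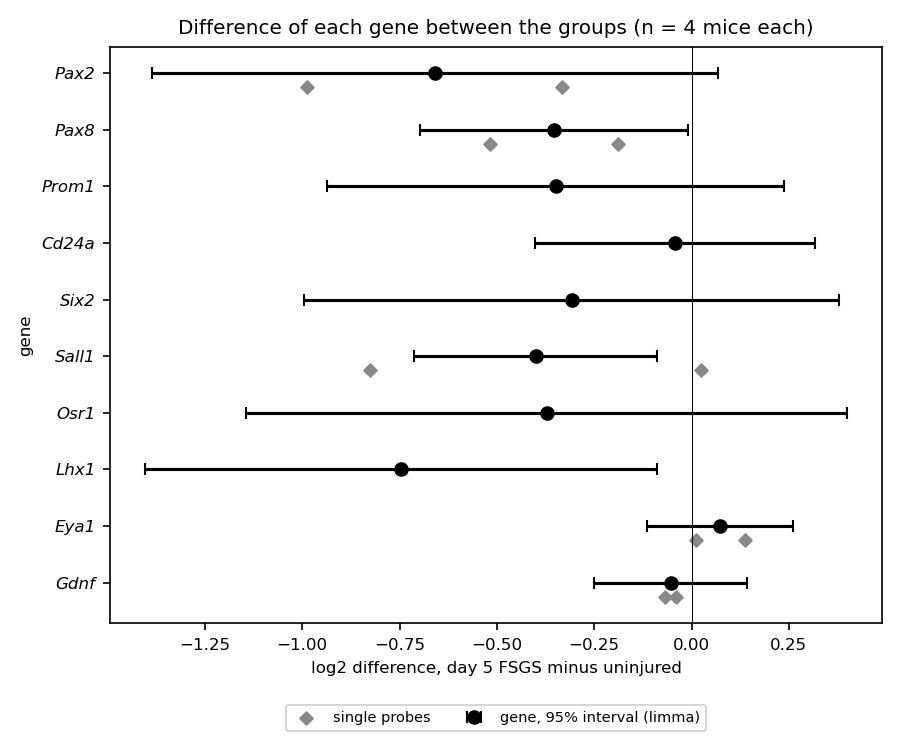
Log2 difference of each gene, day 5 FSGS minus uninjured (black points, with the 95% interval from limma, 4 mice per group), and of the single probes where a gene has more than 1 (grey diamonds). The intervals of Pax8, Sall1 and Lhx1 end below 0, those of the other 7 genes include it, and the probes of Sall1 stand at -0.82 and 0.02.

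Pax2 and Pax8 are paired-box transcription factors that act together in specifying the nephric lineage, and Pax2 persists in parietal and collecting duct epithelium. The detected Pax2 probe (ILMN_2949326) read 7.51, 6.30, 7.98 and 6.36 in day 5 replicates 1 to 4, against 8.20, 7.52, 8.38 and 7.99 in uninjured replicates 1 to 4. Day 5 replicates 2 and 4 were below every uninjured mouse, while replicate 3 lay among them, so that the groups overlapped. The means were 7.04 ± 0.84 in day 5 CoRL and 8.02 ± 0.37 in uninjured CoRL (SD, n = 4 mice each), a difference of -0.99 (SE 0.40, adjusted p = 0.141 from limma) that did not pass the test. In the deposited signal before any correction, this probe ranged between 192.2 and 404.7 on day 5 arrays and between 331.4 and 427.6 on uninjured arrays. The other probe of Pax2 (ILMN_1227108) was not well above background on any array, and its difference was -0.33. Averaged over both probes, Pax2 stood at 6.14 ± 0.57 in day 5 CoRL and 6.80 ± 0.45 in uninjured CoRL (difference -0.66, 95% interval -1.39 to 0.07, adjusted p = 0.206). Over the 8 arrays the 2 probes correlated at r = 0.74.

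Pax8 had its brighter probe (ILMN_1256173) detected in day 5 replicate 1 and in uninjured replicates 3 and 4. Its levels were 5.98, 5.39, 5.57 and 5.29 in day 5 CoRL and 5.77, 5.99, 6.37 and 6.17 in uninjured CoRL. Day 5 replicates 2, 3 and 4 were below every uninjured mouse and replicate 1 above uninjured replicate 1. The difference was -0.52 (SE 0.19, adjusted p = 0.105), and averaged with the undetected probe (ILMN_2616389, -0.19) it was -0.35 (95% interval -0.70 to -0.01, adjusted p = 0.155). Both Pax8 probes thus differed in the same direction (r = 0.72 over the 8 arrays).

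**Figure D3:**
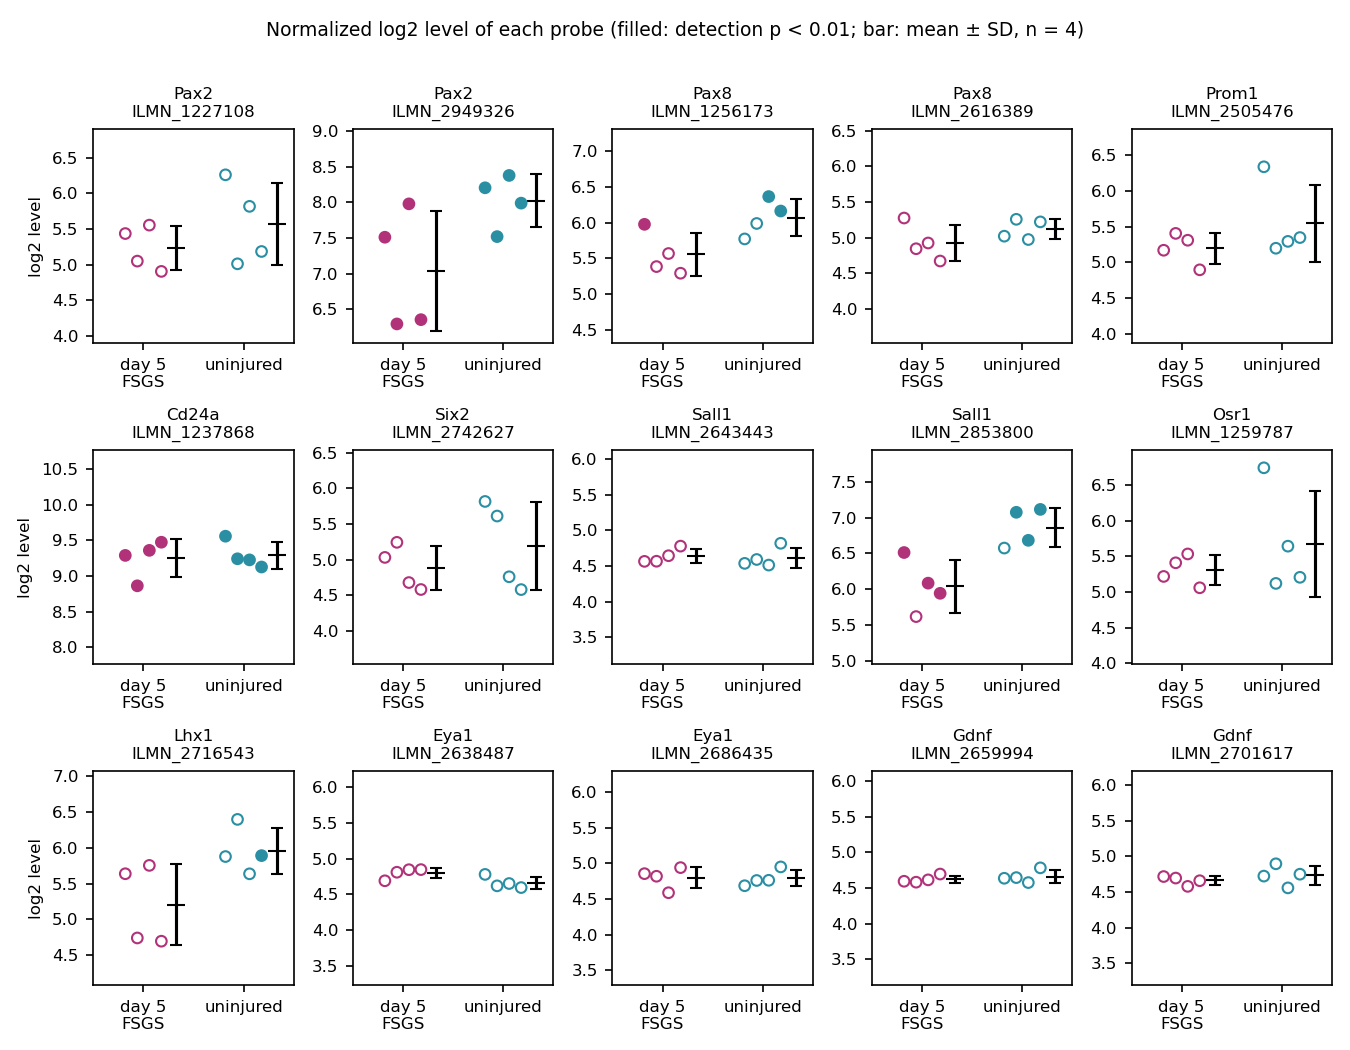
Normalized log2 level of each probe in the 4 day 5 FSGS mice (magenta, left) and the 4 uninjured mice (teal, right), filled where the detection p was under 0.01, with the mean ± SD beside each group. Only for Sall1 (ILMN_2853800) do the day 5 points (5.62 to 6.51) all lie below the uninjured points (6.58 to 7.12), and most panels hold open symbols alone.

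Of the surface markers of parietal cells, Cd24a was detected in every mouse and had nearly equal means. Cd24a encodes CD24, a lipid-anchored glycoprotein that marks progenitor-like parietal cells in human kidney together with CD133, and that leukocytes and tubular cells also carry. Cd24a read 9.29, 8.86, 9.36 and 9.47 in day 5 CoRL and 9.56, 9.24, 9.23 and 9.13 in uninjured CoRL. The groups were interleaved, with the lowest value in day 5 replicate 2 and the highest in uninjured replicate 1. The means were 9.25 ± 0.27 in day 5 CoRL and 9.29 ± 0.19 in uninjured CoRL (SD, n = 4 each), and the 95% interval of the difference (-0.04) reached from -0.40 to 0.32 (adjusted p = 0.894).

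Prom1, which encodes the membrane protein CD133, was not well above background in any mouse, and no fold is given for it. Its levels were 5.17, 5.40, 5.31 and 4.89 in day 5 CoRL and 6.34, 5.20, 5.29 and 5.35 in uninjured CoRL. The value of 6.34 came from the least sensitive array, uninjured replicate 1, and lies under the lowest detected level of that array. The difference in mean level was -0.35 with all mice (adjusted p = 0.412) and -0.09 without uninjured replicate 1.

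Of the progenitor transcription factors Sall1, Six2, Osr1 and Eya1, only Sall1 was detected. Sall1 is a zinc finger protein needed for progenitors to be maintained and for the ureteric bud to invade. Its detected probe (ILMN_2853800) read 6.51, 5.62, 6.08 and 5.94 in day 5 CoRL, with detection in replicates 1, 3 and 4, and 6.58, 7.08, 6.68 and 7.12 in uninjured CoRL, with detection in replicates 2, 3 and 4. Every day 5 mouse was below every uninjured mouse, although day 5 replicate 1 and uninjured replicate 1 read 6.51 and 6.58, and the value of uninjured replicate 1 is under its array's lowest detected level. The means were 6.04 ± 0.37 in day 5 CoRL and 6.86 ± 0.27 in uninjured CoRL (SD, n = 4 each), a difference of -0.82 (SE 0.21, 95% interval -1.31 to -0.34) with an adjusted p of 0.0390 over all probes. This was the smallest adjusted p among the 15 probes and did not reach 0.01. Without any 1 mouse the difference lay between -0.97 and -0.67, with adjusted p-values of 0.0356 to 0.102, and with median scaling it was -0.60 (adjusted p = 0.172).

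The other Sall1 probe (ILMN_2643443) read 4.57, 4.57, 4.65 and 4.78 in day 5 CoRL and 4.54, 4.59, 4.51 and 4.82 in uninjured CoRL. These levels are background on every array, and the probes of Sall1 did not move together (r = 0.07 over the 8 arrays). Averaged over both, Sall1 differed by -0.40 (SE 0.14, adjusted p = 0.0864), whereas the brightest probe alone gave an adjusted p of 0.0383 over genes.

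Six2, Osr1 and Eya1 were not well above background in any mouse. Six2, the homeobox factor that keeps progenitors renewing, had levels of 5.03, 5.24, 4.68 and 4.58 in day 5 CoRL and 5.81, 5.61, 4.76 and 4.58 in uninjured CoRL. In both groups replicates 1 and 2 were higher than replicates 3 and 4, and the groups overlapped (adjusted p = 0.548). Osr1, a zinc finger factor of the intermediate mesoderm from which the kidney forms, was at 5.22, 5.41, 5.53 and 5.06 in day 5 CoRL and at 6.74, 5.12, 5.64 and 5.21 in uninjured CoRL (adjusted p = 0.513). Uninjured replicate 1 again gave the highest value, and without it the differences in mean level shrank to -0.02 for Osr1 and -0.11 for Six2, against -0.37 and -0.31 with all mice. The 2 probes of Eya1, a protein that partners homeobox factors such as Six2, had levels between 4.59 and 4.94 in day 5 CoRL and between 4.59 and 4.95 in uninjured CoRL, with a difference of 0.07 per gene (adjusted p = 0.60).

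Lhx1, a LIM homeobox factor of the renal vesicle, was represented by 1 probe, which was detected in 1 mouse only, uninjured replicate 4. Its levels were 5.64, 4.74, 5.75 and 4.69 in day 5 CoRL and 5.88, 6.40, 5.64 and 5.89 in uninjured CoRL. Day 5 replicates 2 and 4 were below all uninjured mice, and replicates 1 and 3 overlapped with them. The measured means differed by -0.75 (SE 0.29, 95% interval -1.40 to -0.09, adjusted p = 0.120). Since no day 5 array and 1 uninjured array detected Lhx1, no fold is given. Without day 5 replicate 3 the difference was -0.91 (adjusted p = 0.0473), and without day 5 replicate 2 it was -0.57 (adjusted p = 0.280).

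Gdnf, the secreted ligand of the RET receptor that makes the ureteric bud branch, was at background throughout. Its 2 probes had detection p-values between 0.496 and 0.868 and between 0.54 and 0.833 on day 5 arrays, and between 0.377 and 0.881 and between 0.375 and 0.851 on uninjured arrays. Per gene, Gdnf read 4.66, 4.64, 4.60 and 4.68 in day 5 CoRL and 4.68, 4.77, 4.57 and 4.77 in uninjured CoRL, and the groups overlapped (adjusted p = 0.727). Of 12 measured genes of GDNF-RET signalling, 0 were called by limma (2 at an unadjusted p under 0.05, both higher), with a median difference of -0.05. The receptor Ret and its co-receptor Gfra1 were detected on no array. Dusp6, a phosphatase induced by receptor tyrosine kinase signalling, had the smallest p, with levels of 9.40 to 9.95 in day 5 CoRL and 8.62 to 9.38 in uninjured CoRL (difference 0.67, adjusted p = 0.0796).

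Other genes of nephron progenitors were likewise without a call by limma at 0.01. Of 21 measured, 9 were detected on no array, 14 had a lower mean in day 5 CoRL, 0 were called, and 6 were lower and 1 higher at an unadjusted p below 0.05 (median difference -0.28). At an adjusted p of at most 0.05 there were 4 of the 21, all lower, where 5.81% of all genes were lower at that limit. These 4 were named after their values were seen. Bmp7, a secreted factor that keeps progenitors alive, differed by -1.15 (adjusted p = 0.0167) and Bmp4, a related factor of the stroma, by -1.12 (adjusted p = 0.0174). Osr2, a relative of Osr1, differed by -1.43 (adjusted p = 0.0222). Bmp7 and Osr2 were each detected on 1 day 5 array and 3 uninjured arrays, so their differences rest in part on undetected values. Bmp4 was detected on all 8 arrays. Fgfr2, a receptor of fibroblast growth factors, had the smallest p of the list (-0.53, adjusted p = 0.0162) but was detected in 1 uninjured mouse only, and its bound gives no fold. The groups did not overlap for any of these 4, which were picked by their small p. Of all genes 9.61% were lower without overlap. Under the methods' Bayesian test 3 genes of the list were called, all lower, and with scaling to the 75th percentile 4. Wt1, which podocytes also express, was detected in all 8 mice, with levels of 9.13, 6.11, 9.11 and 9.49 in day 5 CoRL and of 8.24 or more in uninjured CoRL. Its difference was -0.16 (adjusted p = 0.909), and 0.63 (adjusted p = 0.156) without day 5 replicate 2, the lowest mouse.

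Of 13 measured genes of the renal vesicle and early nephron, 0 were called by limma, 2 were lower and 1 higher at an unadjusted p below 0.05, and the median difference was -0.24. The higher one was Notch2, a receptor that patterns the proximal nephron, with levels of 5.23 to 6.73 in day 5 CoRL and 4.61 to 4.91 in uninjured CoRL (difference 1.34, adjusted p = 0.0207). No uninjured array detected it, and the bound gives no fold. The methods' Bayesian test called 1 gene of the list, higher in day 5 CoRL.

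Further genes of the parietal epithelium had means on both sides. Of 14 measured, 0 were called by limma, 3 were higher and 0 lower at an unadjusted p below 0.05, and the median difference was 0.06, or -0.22 with scaling to the 75th percentile, which moved the median of all genes to -0.52. The 3 were the adhesion molecule Vcam1, the hyaluronan receptor Cd44, a marker of activated parietal cells, and the tetraspanin Cd9, the last 2 named after their values were seen. Vcam1 read 7.76, 8.57, 6.92 and 9.33 in day 5 CoRL and 5.44, 6.57, 5.35 and 6.32 in uninjured CoRL (difference 2.23, SE 0.52, adjusted p = 0.0274). Every day 5 mouse was above every uninjured mouse, with day 5 replicate 3 the lowest of its group. Cd44 differed by 0.64 (adjusted p = 0.0279) and Cd9 by 0.73 (adjusted p = 0.0316). All 3 were detected on 4 day 5 arrays. Among uninjured arrays, Vcam1 and Cd44 were detected on 2 and Cd9 on 1, so the differences rest in part on undetected values. Claudin 1 (Cldn1), a tight junction protein of parietal cells, differed by 0.0012 (adjusted p = 0.999). The methods' Bayesian test called 1 gene of the list and the fit without day 5 replicate 3 called 2, all higher, and the median was -0.017 without day 5 replicate 1. Vcam1, Cd44 and Cd9 are also made by leukocytes.

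Most markers of tubule and collecting duct epithelium had a lower mean in day 5 CoRL. All 24 measured proximal tubule genes had a lower mean in day 5 CoRL (median -1.24), and 2 were called lower. Slc22a12, which carries urate, fell by 2.49 (adjusted p = 0.00375), and Hpd, of the pathway that degrades tyrosine, fell by 1.04 (adjusted p = 0.00624) but was detected in 1 uninjured mouse only, and no fold is given for it. The mean log2 level of the list was 8.93, 8.53, 9.43 and 7.40 in day 5 CoRL and 9.83 to 10.1 in uninjured CoRL. Of 16 collecting duct genes 3 were called lower. Slc4a1, the anion exchanger of intercalated cells, fell by 2.38 (adjusted p = 0.00781), with detection on 2 day 5 arrays and 4 uninjured arrays. Hsd11b2, which inactivates glucocorticoids, fell by 1.85 (adjusted p = 0.00360) and the proton pump subunit Atp6v1b1 fell by 1.64 (adjusted p = 0.00937). The level of this list was 6.65, 6.04, 6.69 and 6.21 in day 5 CoRL and 7.11 to 7.56 in uninjured CoRL (median -0.81). In both lists day 5 replicates 1 and 3 were above replicates 2 and 4, as for Lhx1 and the brighter probes of Pax2, Pax8 and Sall1. The thick ascending limb and pan-epithelial lists had the same order, whereas Cd24a did not. Among uninjured mice, the proximal tubule and collecting duct lists and Lhx1 were highest in replicate 2 (10.1, 7.56 and 6.40). The detected Pax2 probe was lowest there (7.52). Without day 5 replicate 3 the calls numbered 8 proximal tubule and 3 collecting duct genes, and without each of the other mice in turn at most 1 and 0. The methods' Bayesian test called 14 and 5, all lower, and scaling to the 75th percentile gave 10 and 6.

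Of 15 genes of the thick ascending limb and distal tubule, 0 were called by limma (12 lower and 1 higher at an unadjusted p below 0.05, median -1.02). The list had a level of 7.50, 6.98, 8.08 and 7.16 in day 5 CoRL and 8.00 to 8.65 in uninjured CoRL, and claudin 10 (Cldn10), a paracellular channel, differed by -1.22 (adjusted p = 0.0164). Of 11 pan-epithelial genes 0 were called (4 lower and 0 higher at an unadjusted p below 0.05, median -0.41). Their level was 7.02, 6.39, 7.01 and 6.71 in day 5 CoRL and 6.95 to 7.40 in uninjured CoRL. The epithelial transcription factor Grhl2 had the smallest p (-0.85, adjusted p = 0.0359), with detection on 1 day 5 array and 2 uninjured arrays. The methods' Bayesian test called 7 genes of the thick ascending limb list and 1 pan-epithelial gene, all lower, as did the fit without day 5 replicate 3 for 5 and 1 and scaling to the 75th percentile for 5 and 0. The part of these markers in the readings of Pax2, Pax8, Sall1 and Lhx1 was not tested.

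**Figure D4:**
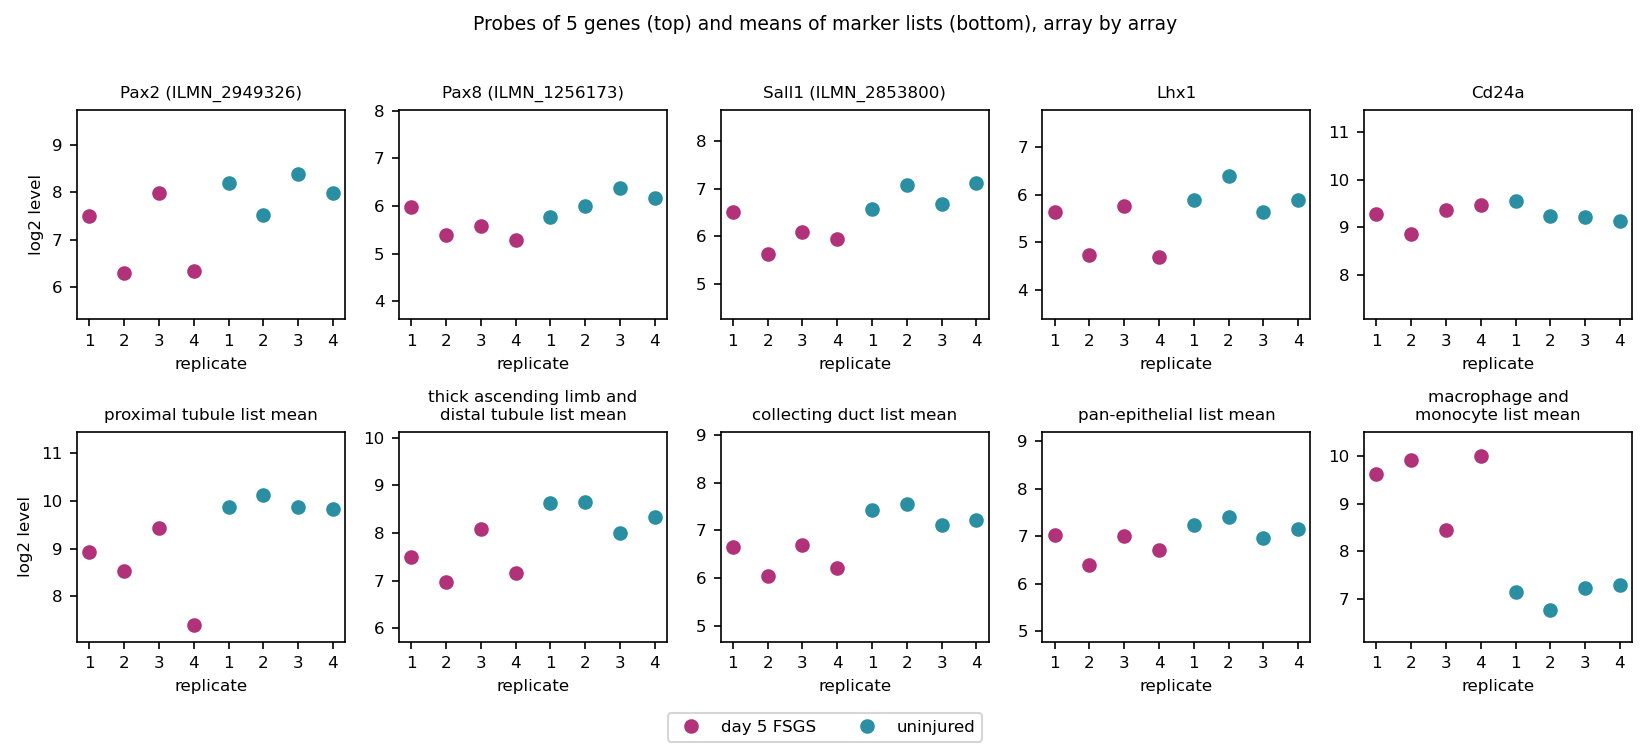
Log2 level on each array (day 5 FSGS replicates 1 to 4 in magenta, left of uninjured replicates 1 to 4 in teal) of 5 probes of the set (top) and of the mean over the genes of 5 marker lists (bottom), each panel spanning the same number of log2 units. Day 5 replicates 1 and 3 lie above replicates 2 and 4 for Pax2, Pax8, Sall1, Lhx1 and all lists but that of macrophages and monocytes. Uninjured replicate 2 is lowest for Pax2 and highest for Lhx1 and the collecting duct list. The macrophage and monocyte list is at 8.44 or more in day 5 CoRL, above the 6.77 to 7.30 of uninjured CoRL.

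Leukocyte markers stood the other way. Of 26 macrophage and monocyte genes 15 rose and 0 fell (median 2.60, against 1.91% of all genes that rose), led by the fractalkine receptor Cx3cr1 (9.94-fold, adjusted p = 0.00338), the mannose receptor Mrc1 (9.14-fold, adjusted p = 0.00844) and the complement gene C1qc (8.82-fold, adjusted p = 0.00629). Of these 26 genes, 14 were detected on all 8 arrays. Among the uninjured arrays, Cx3cr1 was detected on 2 and Mrc1 on 3, so their folds rest in part on undetected values. Without day 5 replicate 1, 0 of them were called, without day 5 replicate 3, 24, and without each of the other mice in turn, 1. Of 15 lymphocyte genes 1 rose, the T cell receptor component Cd3g (at least 1.52-fold higher, adjusted p = 0.00405, median of the list 0.57). Among 12 neutrophil genes 0 were called by limma (2 higher at an unadjusted p under 0.05, median 0.60), and the receptor Csf3r differed by 0.93 (adjusted p = 0.0452). Csf3r was detected on 4 day 5 arrays and 1 uninjured array. The neutrophil median was 0.13 without day 5 replicate 4 and 0.092 with scaling to the 75th percentile. By the methods' Bayesian test 24 macrophage and monocyte, 7 lymphocyte and 1 neutrophil genes were called, all higher. The call of Cd3g ended without each mouse but day 5 replicates 2 and 3. The part of leukocytes, which also carry CD24, in the reading of Cd24a was not tested.

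Lists of the remaining cells of the cortex had few calls. Of 14 podocyte genes 1 rose, the receptor phosphatase Ptpro (difference 1.80, adjusted p = 0.00700, median of the list 0.18). This call remained only without day 5 replicate 3 when mice were left out in turn. Ptpro was detected on 4 day 5 arrays and 1 uninjured array, and no fold is given for it. Of 16 endothelial genes 0 were called by limma (4 higher at an unadjusted p under 0.05, median 0.53), and endoglin (Eng) differed by 0.80 (adjusted p = 0.0304). No uninjured array detected Eng, and its bound gives no fold. Without day 5 replicate 3 the endothelial median was 0.20 and the podocyte median -0.088, and the endothelial list had a level of 7.85 in that mouse, of 6.95 at most in its group otherwise and of 6.18 to 6.89 in uninjured CoRL. Of the 21 mural and renin-lineage genes 0 were called (1 higher and 4 lower when p was left unadjusted, at a limit of 0.05, median 0.04), with desmin (Des) at 1.51 (adjusted p = 0.0490). Des was detected on 4 day 5 arrays and 1 uninjured array. Genes induced by tissue dissociation also had 0 calls among 18 (12 higher at an unadjusted p under 0.05, median 0.72), and the nuclear receptor Nr4a1 differed by 1.30 (at least 1.20-fold higher, adjusted p = 0.0153). Of these 18 genes the methods' Bayesian test called 7, the fit without day 5 replicate 3 called 8, and median scaling and array weights gave 4 each, all higher.

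The genes whose pattern over the 8 arrays was most like that of Pax2 and Cd24a, the 2 of the set detected in all mice, were sought among the 6975 other genes detected throughout at least 1 group. For Pax2 these were the lipase relative Pnpla1 (r = 0.97), the diacylglycerol kinase Dgkh (0.97) and the adhesion molecule Ceacam2 (0.96). With the group means removed, the r values were 0.95, 0.95 and 0.97. Dgkh, for instance, read 7.01, 6.12, 7.10 and 6.05 in day 5 CoRL and 7.92, 6.63, 7.62 and 7.50 in uninjured CoRL, so that it shared with Pax2 the higher day 5 replicates 1 and 3 and the low uninjured replicate 2. For Cd24a they were the growth factor Pdgfa (0.96), the secreted Wnt antagonist Sfrp2 (0.90) and Ddah2, an enzyme that breaks down methylated arginines (0.89). These correlations describe 8 arrays that share the differences in sensitivity given above, and none of the 6 genes was called.

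**Figure D5:**
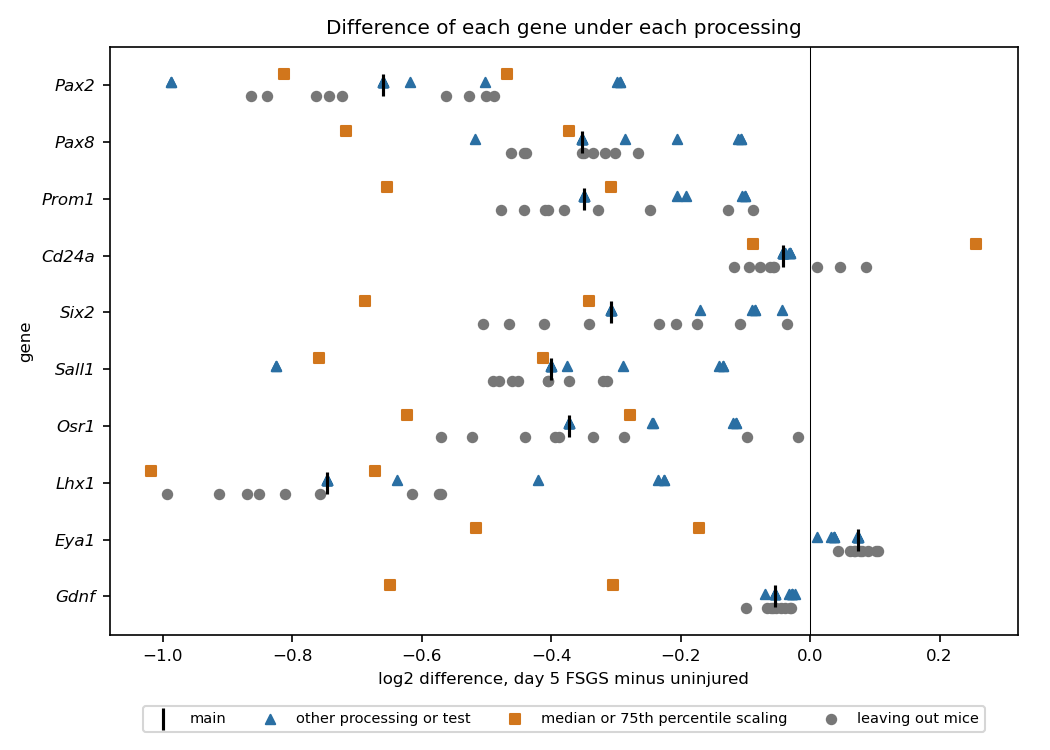
Log2 difference of each gene, day 5 FSGS minus uninjured, as given in the text (black bars), under other processing or tests (blue triangles), under median or 75th percentile scaling (orange squares) and with mice left out (grey circles). Pax2, Pax8, Sall1 and Lhx1 are below 0 under every setting drawn, whereas Cd24a and Eya1 cross 0.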

How the data were processed

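Transcript levels of sorted CoRL were measured on 8 one-colour arrays, 4 from day 5 FSGS and 4 from uninjured mice, 1 mouse each. The deposited table holds a signal intensity per probe, not normalized by the authors, with a detection p-value from the authors' scanner software. A second deposited table, the authors' processed signal on a linear scale after quantile normalization with lumi (its version is not given in the sources used here), was an alternative. No slide is named, and precision is limited by the number of arrays.

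With limma 3.58.1 (R 4.3.3), intensities were corrected by normexp from the detection p-values (offset 16), put on the log2 scale and quantile normalized. Named probes of a gene were averaged without a filter (of 25697 probes, 1719 are unnamed here). lmFit and eBayes compared the groups, with Benjamini-Hochberg adjustment over 16593 genes or 23978 probes. "At least N-fold" sets the brighter mean against the lowest detected level of each array of the dimmer group. The methods' Bayesian test (CyberT, window 101, confidence 10) and unequal-variance test were rebuilt. The limma, Bayesian and unequal-variance tests were run on simulated log2 levels, with limits to pass set for limma alone. Background correction and normalization were not simulated. The 10 genes and the 15 lists were chosen with earlier results of these data known. Named from each list were up to 3 called genes with the largest difference, or the gene with the smallest p, and for Pax2 and Cd24a the 3 genes most alike. Named outside this rule were Wt1, Bmp7, Bmp4, Osr2, Ret, Gfra1, Cldn1, Cd44, Cd9 and the mural genes other than Des. Replicate numbers were not used to pair the mice in the main comparison. Mice are the replicates; figures used matplotlib 3.10.9.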

Additional observations from a re-analysis of the deposited data

Results flagged for a closer look

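In 40 sets of 4 mice (each gene, and each probe of genes with more than 1, in each group), 1 mouse lay far from the rest of its group. Chance gives about 1 in 20 sets, so this count is no more than chance gives. The sets also overlap, since gene averages hold the same probes. Prom1 read 6.34 in uninjured replicate 1 and 5.20 to 5.35 in the other 3 uninjured mice. The probe was not detected on any array.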

How the results depend on the processing

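None of the 10 genes was called under any alternative that tested it (23 to 25 each, since the detection filters left some out), and of the 15 probes 1, that of Sall1, was called at a threshold of 0.05 and 0 otherwise. Pax2, Pax8, Prom1, Six2, Sall1, Osr1, Lhx1 and Gdnf kept a lower mean in day 5 CoRL under every alternative that tested them. Cd24a turned to 0.26 with median scaling, ran from -0.12 (without day 5 FSGS replicate 4) to 0.087 (without day 5 FSGS replicate 2) with mice left out in turn, 0.046 without uninjured replicate 1 among them, and was 0.011 with day 5 FSGS replicate 3 and uninjured replicate 1 both left out, and Eya1 to -0.17 with median and -0.52 with 75th percentile scaling; relative to the medians of all genes, which these scalings moved to -0.18 and -0.52, Eya1 stood near 0. Of the probes, 4 were detected throughout at least 1 group at a detection p under 0.05, against 2 at 0.01.

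The count of all genes called, 383 here, was 200 with an offset of 50, 757 with median scaling (95% of them higher, against 82.8%), 1025 with 75th percentile scaling (56.5% higher), 1000 among probes detected on all arrays of a group, 773 among those detected at 0.05 on an array, 661 with an intensity trend and robust variances, 1454 with array weights, 1638 by the methods' Bayesian test, 2377 at a threshold of 0.05 and 0 at 0.001. The unequal-variance test called 0 (3822 at an unadjusted p under 0.05). With mice left out in turn the count ran from 0 (without day 5 FSGS replicate 1, 4459 unadjusted) to 1931 (without day 5 FSGS replicate 3). After the data were seen, 2 alternatives were added: without the pair of mice named above, 1652, and the authors' processed table with the Bayesian test, 1705. The cause of these differences was not tested, except that filters test fewer genes.

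With the replicate number as a block, 0 genes were called (4879 at an unadjusted p under 0.05), and among the 10 genes the smallest adjusted p was 0.0481, for Pax2. Deviations of same-numbered mice correlated at 0.06, -0.09, -0.07 and 0.11, and 1 of 4 was most like its own number. Median signal before correction fell from replicate 1 to replicate 4 in both groups (200.5 to 157 on day 5 arrays, 234.5 to 167.2 on uninjured arrays). The labels do not say what the numbers mark, so whether same-numbered mice share a step of handling is not known. A slide as a block was not run, since the files used name no slide. Probes at background, 10 of 15, limit what the arrays can show of these genes.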
